A study of Gasterosteus aculeatus with 17 samples.

Results

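In the gills of three-spined sticklebacks (Gasterosteus aculeatus), 124 of 22456 listed genes were higher in fresh water than in marine water in both marine and freshwater fish. The genes were chosen by the group means of the same counts that are described here. Each count was divided by its library's total to give CPM, counts scaled to a common library size, and 0.5 CPM was added to every group mean. A gene had to reach a mean of 5 CPM in at least 1 of the 4 groups. Its log2 ratio of fresh over marine water had to be at least 0.7 in marine fish and at least 0.7 in freshwater fish. Of the 13681 genes that reached the level, 1097 met the limit in marine fish and 288 in freshwater fish, so the 124 are 11.3% of the first set and 43.1% of the second. The limits would have taken up to 150 genes, so all that met them are members, ranked by the smaller of their 2 log2 ratios. Both water ratios were used by this choice, and no fish was left out of it, so they are given as a description. Test calls on them are printed further below only for completeness and are no support.

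The study held 17 wild males in breeding dress, caught in a lake (freshwater fish) or on a sea coast (marine fish), with 1 polyadenylated RNA library from the gills of each. Moved marine fish spent 4 days in fresh water (fish 1 to 5), and kept marine fish stayed in marine water (fish 2 to 5). Moved freshwater fish spent 4 days in marine water (fish 1 to 4), and kept freshwater fish stayed in fresh water (fish 1, 2, 4 and 5). All were wild caught and held captive, and no age is stated. Fresh water therefore means moved fish in the marine population and kept fish in the freshwater population, and water and transfer are opposed between the populations.

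The gill is the organ in which a bony fish exchanges salt with the water. In fresh water its ion-transporting cells, the ionocytes, take up sodium, chloride and calcium against a gradient, and in the sea related cells secrete the salt that the animal drinks. Fish that live in both waters remodel these cells and the junctions between them when salinity changes. The deposited table gives Ensembl gene IDs without names, and 0 of the 22456 IDs could be paired with the reference gene table of this species. What the members encode is therefore not given, the gill label could not be checked against marker genes, and members other than a few are called by their rank. In whole gills, a change in the number of cells of a type and a change in RNA per cell cannot be told apart.

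Libraries of moved marine fish held 6932688 to 16108405 counts and those of kept marine fish 17993109 to 19450343. Those of moved freshwater fish held 23736661 to 27949237 counts, against 23609866 to 28960967 for kept freshwater fish. Over the members, moved marine fish 5 went against its group. Its nearest fish was kept marine fish 5, at a median absolute difference of 0.23 log2 units. By the same measure, moved marine fish 1 to 4 differed from moved marine fish 5 by 0.95 to 1.25. Moved and kept marine fish 5 were the only 2 of the 17 fish whose nearest fish over the members was in the other water. The rule that chose the members favours a nearest fish in the same water. Over the 13557 genes at this level that are not members, the measure was another, the standard deviation of the log2 differences. There 7 fish, among them moved marine fish 1, 3 and 5, had their nearest fish in the other water. Moved marine fish 3 and 5 both had kept marine fish 5 as their nearest, each at 0.50. For fish 3 the second nearest was as close, at 0.50, and for fish 1 both values were 0.67. For fish 5 the second nearest was at 0.65, so it was close to kept marine fish 5 over these genes too. Why fish 5 lay close to kept marine fish 5 was not tested, and results that rest on moved fish 5 are also given without it. Its depth of 9090093 counts lay between those of moved fish 2 and 1, at 6932688 and 9740777.

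The rule required a ratio of at least 0.7 in both populations, so alike ratios over the members are partly set by it. Of all genes at the level, 8.02% met this limit in marine fish and 2.11% in freshwater fish. Over the members, the differences between waters were of similar size in both populations. The median log2 ratio of fresh over marine water was 1.15 in marine fish, with a range from 0.70 to 4.12, and 1.16 in freshwater fish, with a range from 0.71 to 4.21. Over all 18238 tested genes these medians were 0.01 in marine fish and -0.11 in freshwater fish, where the ratio runs kept over moved. With scaling by trimmed means (TMM), as edgeR fits it, the medians of all tested genes were 0.02 and -0.00, and those of the members 1.30 and 1.35. The rule's own ratios on TMM-scaled CPM had medians of 1.19 and 1.27 over the members. Not all of the rise from 1.15 and 1.16 thus came from scaling. At least 2-fold in both populations were 60 members, and at least 4-fold in both were 9. For 85 members the ratios of the 2 populations lay within 0.5 of each other. The ratio was larger in marine fish by more than 1 for 3 members and larger in freshwater fish by more than 1 for 11.

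**Figure D1:**
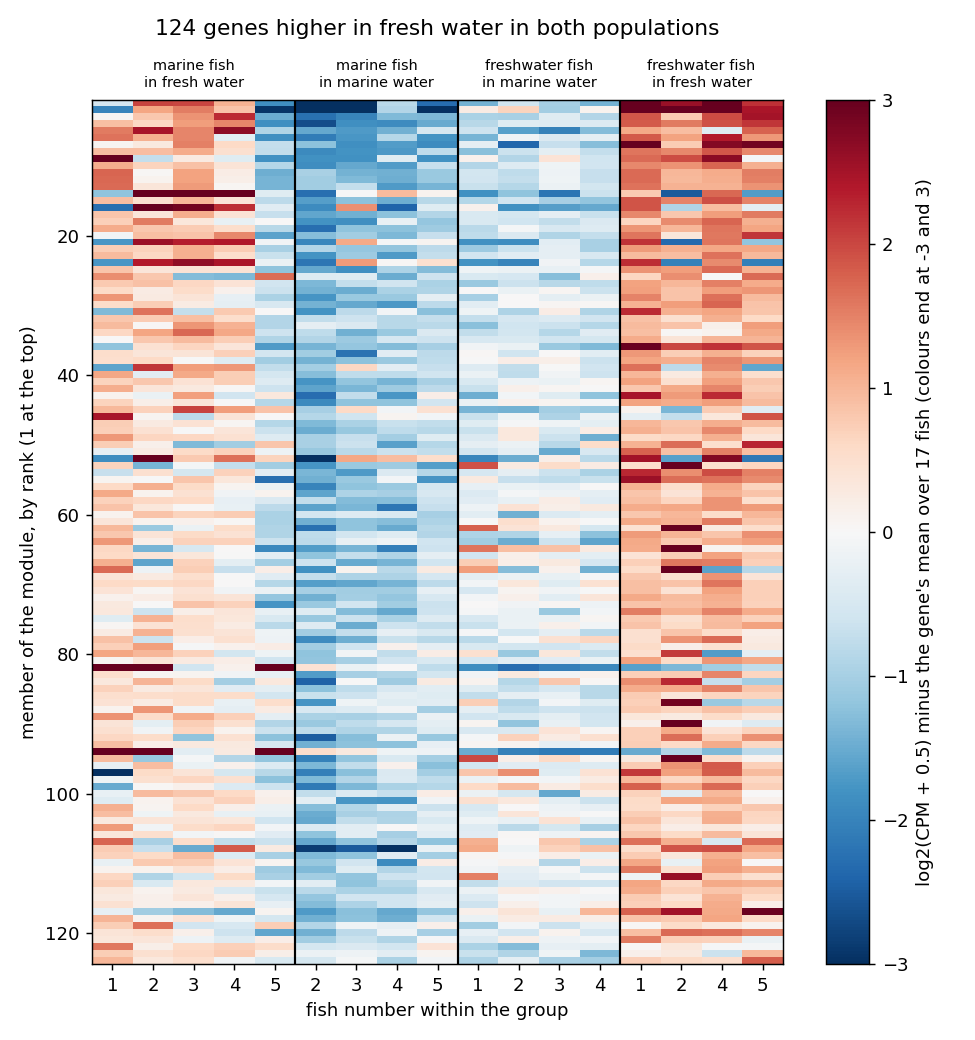
Expression of the 124 members in each of 17 fish, with members by rank from top to bottom and fish in columns by group; colour is log2(CPM + 0.5) minus the gene's mean over all fish. Red runs through moved marine fish 1 to 4 and kept freshwater fish, whereas moved marine fish 5 is pale or blue for most members.

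ENSGACG00000000206 was ranked first by the smaller of its 2 log2 ratios. It stood at 60.0, 349, 344, 177 and 23.5 CPM in moved marine fish 1 to 5, against 7.22, 5.95, 49.0 and 17.3 CPM in kept marine fish 2 to 5. In freshwater fish it stood at 31.5, 56.7, 42.8 and 31.6 CPM in moved fish 1 to 4, against 1158, 518, 972 and 394 CPM in kept fish 1, 2, 4 and 5. The freshwater groups were far apart, and in the marine groups only moved fish 5 fell within the range of kept fish. Group means were 191 ± 153 CPM in moved marine fish (SD, n = 5) and 19.9 ± 20.1 CPM in kept marine fish (n = 4), a log2 ratio of 3.23. They were 40.6 ± 11.9 CPM in moved freshwater fish and 761 ± 363 CPM in kept freshwater fish (n = 4 each), a log2 ratio of kept over moved of 4.21.

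ENSGACG00000018949, ranked second, was among the most abundant members in kept freshwater fish. It stood at 67.1, 605, 775, 479 and 34.0 CPM in moved marine fish 1 to 5, against 20.7, 13.0, 145 and 28.4 CPM in kept marine fish 2 to 5. Moved freshwater fish 1 to 4 had 314, 422, 130 and 284 CPM, against 4454, 2283, 3676 and 1459 CPM in kept freshwater fish 1, 2, 4 and 5. Again the freshwater groups did not overlap, while kept marine fish 4 lay above moved marine fish 1 and 5. The log2 ratios of fresh over marine water were 2.91 in marine fish and 3.37 in freshwater fish. In marine water, moved freshwater fish had a higher mean than kept marine fish, at 287 ± 121 CPM (SD, n = 4) and 51.7 ± 62.3 CPM (n = 4).

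The remaining members of the first 10 fell into a high and a low range of expression. The member ranked 3 had 81.1, 138, 201, 368 and 27.3 CPM in moved marine fish 1 to 5 and 16.1, 19.3, 31.0 and 30.4 CPM in kept marine fish 2 to 5. In freshwater fish it had 40.2, 39.3, 60.2 and 42.6 CPM in moved fish 1 to 4 and 286, 136, 307 and 440 CPM in kept fish 1, 2, 4 and 5. Its groups overlapped only through moved marine fish 5. The member ranked 4 had 65.7, 54.5, 84.6, 97.3 and 9.46 CPM in moved marine fish 1 to 5 and 5.11, 9.47, 9.09 and 12.0 CPM in kept marine fish 2 to 5. Moved freshwater fish 1 to 4 had 19.5, 27.3, 26.9 and 26.4 CPM of it, and kept freshwater fish 1, 2, 4 and 5 had 128, 105, 133 and 158 CPM. Within each population, the groups of this member too overlapped only through moved marine fish 5.

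The members ranked 8 and 10 were abundant and nearly parallel. The member ranked 8 had 584, 580, 664, 428 and 184 CPM in moved marine fish 1 to 5 and 81.1, 88.0, 91.9 and 181 CPM in kept marine fish 2 to 5. It had 129, 197, 251 and 187 CPM in moved freshwater fish 1 to 4 and 927, 826, 1122 and 825 CPM in kept freshwater fish 1, 2, 4 and 5. Neither population's groups overlapped, but moved marine fish 5 and kept marine fish 5 were almost equal. The member ranked 10 had 677, 505, 585, 418 and 178 CPM in moved marine fish 1 to 5 and 87.9, 110, 99.6 and 197 CPM in kept marine fish 2 to 5. It had 175, 245, 293 and 214 CPM in moved freshwater fish 1 to 4 and 872, 815, 1067 and 672 CPM in kept freshwater fish 1, 2, 4 and 5. Here kept marine fish 5 lay above moved marine fish 5, so the marine groups overlapped by that pair.

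The members ranked 5, 6, 7 and 9 were low transcripts. The member ranked 5 had 9.44, 18.2, 8.94, 21.3 and 1.32 CPM in moved marine fish 1 to 5 and 0.667, 0.551, 0.757 and 1.85 CPM in kept marine fish 2 to 5. It had 1.72, 0.606, 0.337 and 0.876 CPM in moved freshwater fish 1 to 4 and 6.97, 5.94, 2.13 and 11.1 CPM in kept freshwater fish 1, 2, 4 and 5. It is 1 of 3 members whose means were under 1 CPM in both marine-water groups, with those ranked 36 and 90. The member ranked 6 had 9.96, 6.49, 8.75, 2.20 and 0.440 CPM in moved marine fish 1 to 5 and 0.278, 0.496, 1.35 and 0.463 CPM in kept marine fish 2 to 5. It had 0.787, 2.61, 1.98 and 2.26 CPM in moved freshwater fish 1 to 4 and 11.5, 7.22, 17.1 and 7.75 CPM in kept freshwater fish 1, 2, 4 and 5. Its freshwater groups were separate, and in the marine groups only moved fish 5 was low.

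The member ranked 7 had 2.67, 3.17, 8.07, 4.04 and 1.32 CPM in moved marine fish 1 to 5 and 0.778, 0.330, 0.433 and 0.308 CPM in kept marine fish 2 to 5. It had 2.00, 0.0758, 1.35 and 0.730 CPM in moved freshwater fish 1 to 4 and 24.6, 4.56, 19.8 and 21.9 CPM in kept freshwater fish 1, 2, 4 and 5. With the member ranked 8 it was the exception among the first 10, since moved marine fish 5 also stood above every kept marine fish. The member ranked 9 rested largely on 1 marine fish. It had 14.2, 0.577, 1.61, 0.878 and 0 CPM in moved marine fish 1 to 5, and 0, 0, 0.865 and 0 CPM in kept marine fish 2 to 5. In kept marine fish 2, 3 and 5 a count of 0 allows up to 0.167, 0.165 and 0.154 CPM, and in moved marine fish 5 up to 0.33 CPM (3 counts per library, counting error only). In freshwater fish it had 1.43, 0.455, 1.85 and 0.657 CPM in moved fish 1 to 4 and 5.18, 6.35, 10.9 and 1.19 CPM in kept fish 1, 2, 4 and 5, the only freshwater overlap among the first 10.

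The most abundant member in kept freshwater fish was the one ranked 15. It had 4440, 3295, 4718, 3056 and 1364 CPM in moved marine fish 1 to 5 and 745, 1005, 852 and 1329 CPM in kept marine fish 2 to 5. Moved freshwater fish 1 to 4 had 1309, 1555, 1185 and 1032 CPM, and kept freshwater fish 1, 2, 4 and 5 had 8769, 6565, 8949 and 6631 CPM. Groups did not overlap in either population, and the group means were 3375 ± 1331 (SD, n = 5), 983 ± 254 (n = 4), 1270 ± 221 (n = 4) and 7728 ± 1308 CPM (n = 4) in the same order. Its log2 ratios of fresh over marine water were 1.78 in marine fish and 2.60 in freshwater fish. In moved marine fish the member ranked 16 had a higher mean, at 4168 ± 4582 CPM (SD, n = 5).

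**Figure D2:**
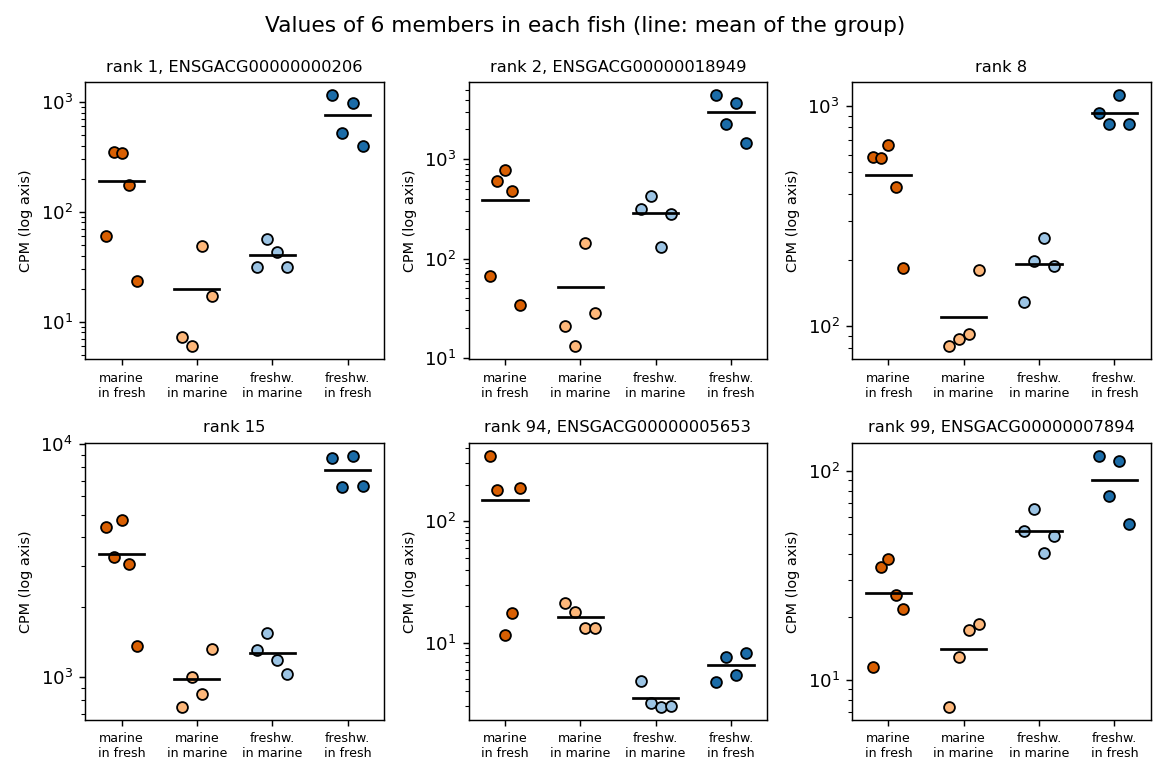
CPM on a log axis of 6 members in every fish, by group, with the group mean as a line and fish in number order from left to right. For ranks 1, 2, 8 and 15 the lowest moved marine fish is fish 5, while rank 94 was lowest in all freshwater fish and rank 99 highest in them.

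All members together took a larger share of the counts in fresh water, which the rule fixes in advance for the group means. They held 1.84% ± 0.733 of the counts in moved marine fish (SD, n = 5) and 0.611% ± 0.133 in kept marine fish (n = 4). In freshwater fish they held 0.796% ± 0.0539 when moved and 2.83% ± 0.575 when kept (n = 4 each). By fish, the share was 1.71%, 2.72%, 2.30%, 1.70% and 0.775% in moved marine fish 1 to 5, and 0.458%, 0.708%, 0.542% and 0.736% in kept marine fish 2 to 5. Moved freshwater fish 1 to 4 had 0.793%, 0.864%, 0.794% and 0.732%, and kept freshwater fish 1, 2, 4 and 5 had 3.36%, 2.35%, 3.30% and 2.32%. The 5 members with the highest means in kept freshwater fish, ranked 2, 15, 16, 85 and 113, were also summed. They made up 39.2% to 60.8% of the members' counts in moved marine fish and 35.6% to 49.6% in kept marine fish. In freshwater fish they made up 30.3% to 41.2% when moved and 48.0% to 55.5% when kept. This choice favours the share in kept freshwater fish.

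With every member weighted equally, fish in fresh water stood above those in marine water of the same population. The rule chose the members for this, so it is a description only. Relative to the marine-water mean of the same population, the median log2 level of the members was 1.52, 1.30, 1.35, 1.13 and 0.32 in moved marine fish 1 to 5. It was -0.43, -0.09, -0.07 and 0.26 in kept marine fish 2 to 5. It was -0.11, -0.01, 0.02 and -0.04 in moved freshwater fish 1 to 4, and 1.21, 1.12, 1.36 and 1.00 in kept freshwater fish 1, 2, 4 and 5. Moved marine fish 5 thus lay close to kept marine fish 5 and below every other fish in fresh water. Genes that are not members had medians between -0.16 and 0.06 on the same measure in every fish. The members were chosen by their water ratios, so nothing is read from this contrast.

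**Figure D3:**
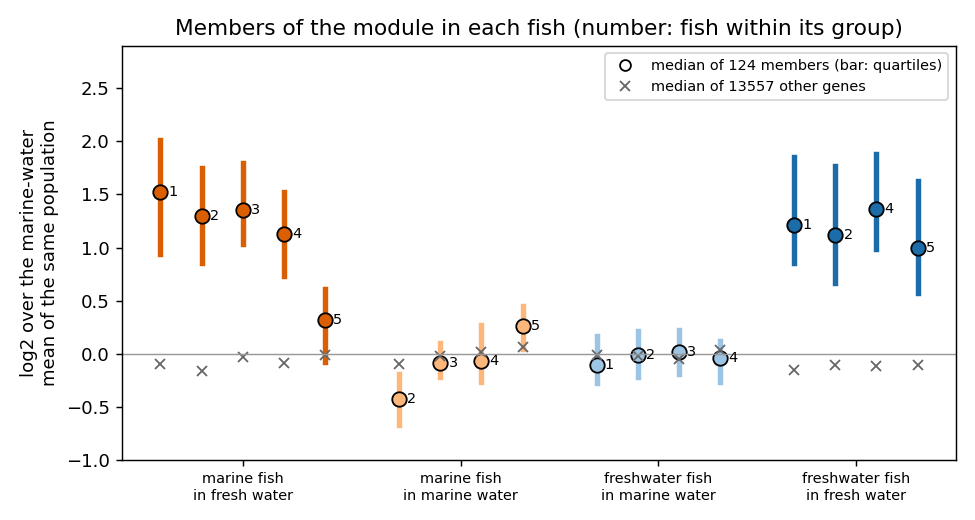
Median log2 level of the 124 members in each fish over the marine-water mean of its population, with bars from the lower to the upper quartile of the members and crosses for the median of 13557 other genes. Fish in fresh water lie between 1.00 and 1.52 except moved marine fish 5 at 0.32.

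Moved marine fish 5 exceeded all kept marine fish in fewer members than any other moved marine fish did. Moved marine fish 1, 2, 3 and 4 exceeded all kept marine fish in 107, 109, 108 and 104 of the 124 members, and fish 5 in 52. The shares of tested genes in which each single fish did so were not counted. In 63 members fish 5 lay within the range of kept marine fish and in 9 below it, and it was the lowest moved marine fish in 80. All moved marine fish were above all kept marine fish in 29 members, or 23.4%, where 1.52% of tested genes had no overlap in this direction. Without fish 5 the number was 75 members, or 60.5%, where it was 2.85% of tested genes. No other fish was left out for this count. The median log2 ratio of the members without fish 5 was 1.32. All moved freshwater fish were below all kept freshwater fish in 89 members, or 71.8%, where it was 2.62% of tested genes. In 25 members there was no overlap in either population, and the share of tested genes for this was not counted. The rule itself favours such members, so nothing is read from these counts and shares.

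In edgeR's quasi-likelihood fit, with p adjusted by Benjamini-Hochberg over all tested genes, 65 members passed an adjusted p of 0.05 as higher in moved than in kept marine fish, where 1.44% of tested genes did. As lower in moved than in kept freshwater fish, 59 members passed, where 0.631% of tested genes did. These calls repeat the contrasts that chose the members and are given only for completeness. The marine count was 0 without kept marine fish 2, 3 or 4, where 0 of all tested genes were called. It was 33 without moved marine fish 2, where 74 were called, against 262 with all fish. At an unadjusted p below 0.05 (edgeR) it was 109 with all fish. The share of tested genes at that unadjusted p was not counted, so nothing is read from this number. The freshwater count was 18, 22, 34 and 17 without moved freshwater fish 1, 2, 3 and 4, where 31, 35, 73 and 30 genes were called. It was 29 without kept freshwater fish 1 or 4, where 48 and 52 were called, against 115 with all fish.

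The difference between the populations, averaged over both waters, was not itself used by the choice, but it is not independent of it. It shares every fish with the water ratios, and with unequal spread within groups the 2 are linked: a high value in a kept freshwater fish raises both the ratio in freshwater fish and the population difference, and one in a moved marine fish raises the ratio in marine fish and lowers the population difference. The level limit also favours members that are high in 1 group. The calls below therefore describe the members and are no independent support. By edgeR's quasi-likelihood test over all genes, 66 of the 124 members (53.2%) were higher in freshwater fish at an adjusted p below 0.05, where 17.2% of tested genes were. Lower in freshwater fish were 5 members (4.03%), where 16.3% of tested genes were, and 53 members passed in neither direction. Of the 124, 15 reached 5 CPM only in kept freshwater fish, and 9 of these are among the 66. Of the other 109 members, 57 (52.3%) were called higher, where 19.9% of the tested genes at 5 CPM in any group were. The latter share keeps genes that reached 5 CPM only in kept freshwater fish, so the sets are unlike and the level limit is not set aside. Only in moved marine fish, 2 members reached 5 CPM, and 1 of these is among the 5. This division by level was made after the values were seen. The median log2 difference was 0.62 over the members and -0.01 over all tested genes, and it was above 0 for 103 members (83.1%) and for 49.3% of tested genes. Freshwater libraries were all deeper than marine ones, so depth and population cannot be told apart. With every library thinned to the shallowest, 58 members were higher and 5 lower, where 15.6% of tested genes were higher. Without moved marine fish 5, 61 members were higher and 6 lower, where 16.6% of tested genes were higher.

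**Figure D4:**
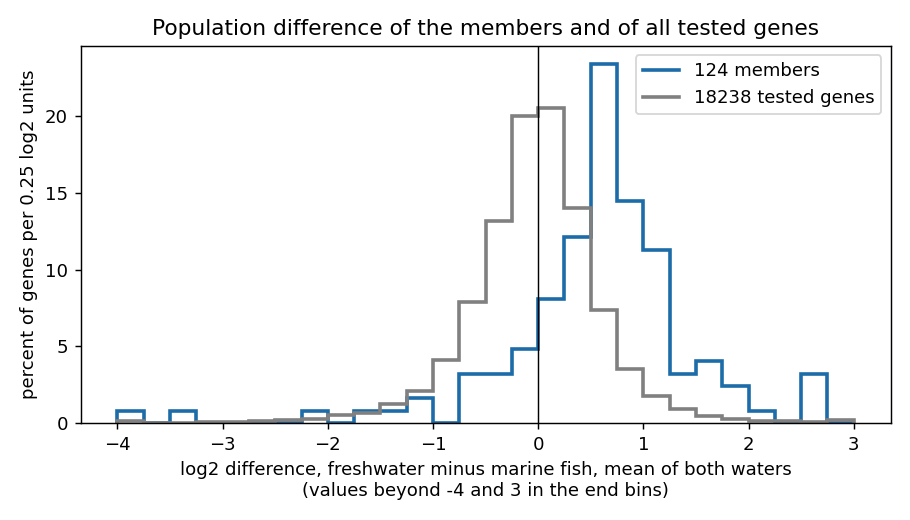
Percent of the 124 members and of the 18238 tested genes in bins of 0.25 log2 units of the difference of freshwater minus marine fish, averaged over both waters. The members' median lies at 0.62 and that of all tested genes at -0.01.

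The population difference had the same direction in each water. In marine water, 100 members had a higher mean in moved freshwater fish than in kept marine fish, with a median log2 ratio of 0.60, where 61.7% of tested genes were higher and the median was 0.15. In fresh water, 106 members had a higher mean in kept freshwater fish than in moved marine fish, with a median log2 ratio of 0.70, where 54.5% of tested genes were higher and the median was 0.05. All moved freshwater fish exceeded all kept marine fish in 43 members, or 34.7%, where 20.5% of tested genes did. All kept freshwater fish exceeded all moved marine fish in 36 members, or 29%, where 9.32% of tested genes did. The median over members of the group mean in marine water was 16.5 CPM for freshwater fish and 11.8 CPM for marine fish. In fresh water it was 38.5 CPM for freshwater fish and 27.7 CPM for marine fish. In 83 members kept freshwater fish had the highest mean, moved marine fish the next, then moved freshwater fish, and kept marine fish the lowest. The rule already places fresh above marine water within each population, and the share of tested genes in this order was not counted. Group means taken in 1 water share fish with the water ratios, so these values describe the members and were not tested.

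Among the 66 members that were higher in freshwater fish, the log2 difference ranged from 0.45 to 2.73 with a median of 0.84, and 28 differed more than 2-fold. ENSGACG00000007894, ranked 99, was the only one without overlap between all freshwater and all marine fish. It stood at 51.7, 65.3, 40.3 and 48.7 CPM in moved freshwater fish 1 to 4 and 118, 75.3, 111 and 55.6 CPM in kept freshwater fish 1, 2, 4 and 5. Marine fish had 11.5, 34.6, 37.6, 25.3 and 21.7 CPM when moved (fish 1 to 5) and 7.39, 12.9, 17.3 and 18.5 CPM when kept (fish 2 to 5). Its log2 difference of freshwater minus marine fish was 1.74 (SE 0.22, edgeR adjusted p = 5.38e-05), while its log2 ratios of fresh over marine water were only 0.88 and 0.80 in marine and freshwater fish. ENSGACG00000018949 differed by 2.61 (SE 0.58, edgeR adjusted p = 0.0032). ENSGACG00000000206 differed by 1.43 (SE 0.49, edgeR adjusted p = 0.032), and its adjusted p was 0.05 to 0.067 without any 1 of 7 fish: moved marine fish 4, kept marine fish 2, 3 or 5, moved freshwater fish 2, and kept freshwater fish 1 or 4.

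The 5 members that were lower in freshwater fish ranked 14, 45, 82, 94 and 122, with log2 differences from -3.98 to -0.74. ENSGACG00000005653, ranked 94, was the only one without overlap. It stood at 4.87, 3.18, 2.95 and 2.99 CPM in moved freshwater fish 1 to 4 and 4.78, 7.67, 5.47 and 8.26 CPM in kept freshwater fish 1, 2, 4 and 5. Marine fish had 346, 180, 11.5, 17.5 and 186 CPM when moved (fish 1 to 5) and 21.1, 18, 13.3 and 13.1 CPM when kept (fish 2 to 5). The log2 difference of freshwater minus marine fish was -3.47 (SE 0.54, edgeR adjusted p = 0.00023). Its higher mean in moved than in kept marine fish came from fish 1, 2 and 5, while fish 4 lay within the range of kept fish and fish 3 below it. The member ranked 82, with the largest log2 ratio of fresh over marine water in marine fish, was split the same way, at 314, 99.1, 4.53, 7.82 and 207 CPM in moved marine fish 1 to 5 and 9.84, 6.22, 7.19 and 4.01 CPM in kept marine fish 2 to 5. In freshwater fish it had 1.61, 1.06, 1.35 and 1.5 CPM when moved (fish 1 to 4) and 1.98, 2.49, 3.19 and 4.07 CPM when kept (fish 1, 2, 4 and 5). This member was singled out after its values were seen.

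Members varied more among fish of a group than other genes did. The rule can favour genes with a wide spread, and the other genes were not matched in level. Nothing is therefore read from this difference. The median log2 range within a group was 1.70 over the members and 0.75 over the other genes in moved marine fish, and 0.98 against 0.57 in kept marine fish. It was 0.72 over the members and 0.43 over the other genes in moved freshwater fish, and 0.80 against 0.52 in kept freshwater fish. A range of at least 4-fold was found in 44 members (35.5%) in moved marine fish and in 13 (10.5%) in kept marine fish, where 9.94% and 2.66% of the other genes had one. It was found in 5 members (4.03%) in moved freshwater fish and in 22 (17.7%) in kept ones, where 1.22% and 1.9% of the other genes had one. Without fish 5, the median log2 range in moved marine fish was 1.12 over the members and 0.66 over the other genes, and 27 members (21.8%) and 9.03% of the other genes had a range of at least 4-fold. After each group's mean was removed, the median correlation over the 7626 pairs of members across the 17 fish was 0.28, and over pairs of the other genes it was 0.02. Without moved marine fish 5 the members' median was 0.12, and without all moved marine fish it was 0.16. These correlations share libraries and carry no test.

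Unevenness among kept freshwater fish took more than 1 form, in members singled out after their values were seen. In 5 members, ranked 14, 21, 24, 39 and 52, kept freshwater fish 1 and 4 were both at least 3-fold above fish 2 and 5 in CPM + 0.5. The member ranked 52 had 15.4, 21.4, 68.4 and 34.8 CPM in moved freshwater fish 1 to 4 and 353, 19.3, 421 and 13.4 CPM in kept freshwater fish 1, 2, 4 and 5. It had 16.4, 485, 106, 191 and 97.2 CPM in moved marine fish 1 to 5 and 2.56, 137, 116 and 88.3 CPM in kept marine fish 2 to 5. Low and high fish thus occurred together in both marine groups as well. In all 5 of these members, moved marine fish 2, 3 and 4 were above fish 1 and 5, as they were in 30 of the 124. The share of tested genes with this order was not counted, and some of the 5 may not be separate measurements.

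In 8 other members, ranked 53, 62, 65, 68, 87, 90, 95 and 112, kept freshwater fish 2 alone was at least 3-fold above the other kept freshwater fish on the same scale. The member ranked 68 had 82.9, 13.7, 37.8 and 12.4 CPM in moved freshwater fish 1 to 4 and 50.7, 447, 11.0 and 18.6 CPM in kept freshwater fish 1, 2, 4 and 5. It had 113, 30.6, 58.0, 21.0 and 39.2 CPM in moved marine fish 1 to 5 and 9.45, 37.1, 19.4 and 41.2 CPM in kept marine fish 2 to 5. Without kept freshwater fish 2 none of the 8 met the limit in freshwater fish: their log2 ratios of kept over moved fish were -0.62 to 0.30. Of these 8 members, 5 are among the 66 called higher in freshwater fish. No other kept freshwater fish stood 3-fold above the next in any member, also on that scale.

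Membership depended on single fish for part of the set. With each fish left out in turn, 73 of the 124 members met the rule every time. Most were lost without kept marine fish 2 and kept freshwater fish 4, at 17 members each, followed by kept freshwater fish 2 with 16 and moved marine fish 1 with 15. Without moved marine fish 5, 2 members were lost and 134 genes met the rule. At the limit, the last 3 members had a smaller log2 ratio of 0.710, 0.708 and 0.701, and the first 3 genes outside had 0.699, 0.696 and 0.695. The smaller ratio lay from 0.7 to 0.8 in 27 members and from 0.6 to 0.7 in 31 genes outside. On the level limit, the lowest member reached 5.21 CPM in its highest group, the highest gene outside reached 4.60 CPM, and 25 genes failed by their level alone.

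By the mirrored limits, 57 genes were lower in fresh water in both populations. Limits of the same size were met by 29 genes higher in moved than in kept fish of both populations and by 19 genes lower in moved fish of both.

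Some members may not be separate measurements. The members ranked 11 and 12 have IDs that follow each other, and their CPM stood at a ratio of 1.01 to 1.13 in all 17 fish. Their deviations from the group means had a correlation of 0.998 across fish, so reads of one may have been counted for the other and their values are uncertain as 2 genes. The members ranked 21 and 24 had a correlation of 0.987 by the same measure, but their CPM ratio ran from 0.506 to 1.22. Their ID numbers lie 2231 apart. Only pairs with a correlation over 0.98 were listed, and other members also have close ID numbers. Among them are those ranked 53 and 62, and those ranked 65, 95 and 112. These are the members led by kept freshwater fish 2 that were called higher in freshwater fish. Those ranked 14 and 52 also have close ID numbers. They belong, as do those ranked 21 and 24, to the members in which kept freshwater fish 1 and 4 stood above the other kept freshwater fish. Whether the members of any of these sets are separate measurements was not tested. In 47 members (37.9%) the counts of all 17 fish shared a divisor of 2 or more, as they did in 4873 of 17449 genes with over 200 counts (27.9%). What gave such counts is not stated in the sources used here, and for these members the number of independent reads may be lower than the count.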

How the data were processed

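Gill polyadenylated RNA of 17 fish was sequenced, 1 library per fish. Reads came through CASAVA 1.8.2 and TopHat2 2.1.0, as named in the submitters' processing notes, from poly(A)-selected RNA per the labels' protocols. Counting tool, genome build and gene annotation: not given in the sources used here. The deposited values are unnormalized whole-number counts for each gene, and 0 columns belong to no sample. CPM values were computed here from column totals, and log2 levels use CPM + 0.5. Total counts were 6932688 to 28960967, and for abundant genes the precision is set by the spread between fish rather than by counting error. Intervals for a count of 0 cover counting error only. Libraries of a group differed by 36.1 to 151 in chi-square per degree of freedom over 28 pairs, so none was treated as a duplicate.

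Of 22456 genes, 18238 passed edgeR's filterByExpr (minimum count 10), all 124 members among them. Libraries were scaled by TMM and 1 model over the 4 groups, without covariates, was fitted in edgeR 4.0.16 (glmQLFit, then glmQLFTest), with p-values adjusted over all tested genes. The standard error is the log2 difference divided by the square root of F. The script was tested on simulated data. Fish of different groups share numbers in the labels but are separate wild animals. Of 21 pairs with the same number, 5 had a correlation of deviations over 0.1, and no pair of groups had it throughout, so no pairing was used. Alternatives were DESeq2 1.42.0, limma 3.58.1 voom, other scaling and filters, the number as a block, division by shared divisors, and fish left out. Thinning to equal depth was added after seeing the data.

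The members and lists were chosen with earlier results of these data known. By the rule for named genes, IDs are printed for the first 2 members and for the largest non-overlapping population differences. Ranks are printed for the first 10, the most abundant in kept freshwater fish and those at the limits. The gene lists of pathways and cell types were not run, because 0 IDs could be paired with the 52177 genes of the reference table. R 4.3.3, Python 3.11.15, numpy 2.4.6, pandas 2.3.3 and matplotlib 3.10.9 were used.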

Additional observations from a re-analysis of the deposited data

Results flagged for a closer look

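Of 56 sets of fish (13 members and the median over all members, each in 4 groups), 6 held a fish far from the others of its group, by the gap to its nearest neighbour relative to the group's range on the log2 scale. Chance alone gives about 1 in 20 such sets. The member ranked 4 was low in moved marine fish 5, at 9.46 CPM, and low in moved freshwater fish 1, at 19.5 CPM. The member ranked 7 was low in kept freshwater fish 2, at 4.56 CPM. The member ranked 8 was high in kept marine fish 5, at 181 CPM. The member ranked 9 was high in kept marine fish 4, at 0.865 CPM, where the other 3 kept marine fish had a count of 0. The member ranked 94 was high in moved freshwater fish 1, at 4.87 CPM.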

How the results depend on the processing

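The count of members higher in freshwater fish (66) was 54 to 75 under 9 other settings and 52 to 70 with single fish left out, against 13.8% to 18.9% of tested genes. The count lower was 4 to 6 and 3 to 6, with 3 without moved freshwater fish 1 or 2. The fish number as a replicate block gave 54 higher. ENSGACG00000000206 then had an adjusted p of 0.051 (edgeR). The other 3 named IDs passed throughout. The number of genes meeting the rule (124) was 100 to 146 under 5 other settings and 110 to 137 with single fish left out. These totals include genes that are not members. Of the 124 members, 97 to 124 still met the rule under those settings and 107 to 122 with single fish left out. The 97 came with medians over fish. Of the calls on the contrasts that chose the members, the marine count (65) was 0 with the replicate block (101 at an unadjusted p below 0.05, edgeR). It was 37 with limma voom, 89 with DESeq2 and 19 without moved marine fish 1 and 2 together. Over all tested genes these settings gave 0, 94, 958 and 83 calls, against 262 in the main fit. With single fish left out the marine count was 0 to 78. Without kept marine fish 2, 3 and 4, 97, 105 and 100 members had an unadjusted p below 0.05 (edgeR). The choice of the members favours these unadjusted counts and the 101 above. The shares of tested genes at that unadjusted p were not counted, so nothing is read from them. The freshwater count (59) was 91 with limma voom, where 458 tested genes were called. With single fish left out the freshwater count was 17 to 76, where 30 to 148 tested genes were called. The cause was not tested. Of 21 same-number pairs, 7 matched their own number best. These included fish 2, 3 and 4 of kept marine with moved freshwater fish, at correlations of 0.10, 0.17 and 0.07. They also included fish 3, 4 and 5 of moved with kept marine fish, at 0.19, 0.04 and 0.26, but not fish 2, at -0.23. Low members are limited by depth in moved marine fish, the shallowest group.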
